A study of Homo sapiens with 132 samples.

Results

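Afatinib was compared with no treatment in Hs746T gastric cancer cells after 4 h, in the 6 libraries of this cell line and time point that were labelled afatinib or untreated (3 replicates each), out of 132 libraries in the series. Small shifts in expression were measured. INSIG1, a sterol sensor protein of the endoplasmic reticulum, rose by 0.32 on the log2 scale. BHLHE40, a transcriptional repressor, rose by 0.24, and F3, which encodes tissue factor, fell by 0.39. These 3 genes also passed the test when afatinib was added to trastuzumab in 6 other Hs746T libraries of the same time point, where only INSIG1 passed whichever of the 6 libraries was left out. Of 19 feedback and target genes of the MAP kinase pathway, 17 fell in each of the 3 other cell lines (7.43% to 17.1% of all genes did). In Hs746T cells the list had a median log2FC of -0.02 in the same fit of the 4 lines. Most of the calls against untreated depended on 2 libraries, which are described before the results.

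The series measured RNA by sequencing in 4 lines derived from gastric cancers, Hs746T, NCI-N87, MKN7 and MKN1. Hs746T and MKN1 cells were left untreated or received EGF, cetuximab, EGF + cetuximab, trastuzumab, afatinib or trastuzumab + afatinib, and were harvested after 4 h or 24 h. For NCI-N87 and MKN7 there were no libraries with EGF or cetuximab. The untreated Hs746T cells received no drug, and the treated cells received afatinib at 0.5 μM. Hs746T cells were grown in DMEM with fetal calf serum, and the medium was changed ahead of the treatment. Whether serum was present during the treatment is not given in the sources used here. The labels call the control untreated and name no solvent for it, so the effects of drug and solvent cannot be told apart. Hs746T is 1 established cell line, described by the study as a non-responder to afatinib and to cetuximab. The study describes its in vitro data as means of independent experiments, and the labels do not say what a replicate number stands for. The p-values rest on the spread that is left among the 42 Hs746T libraries once treatment, time and replicate number are fitted. This spread may in part be technical.

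Afatinib binds covalently to the ATP pocket of the ERBB family kinases EGFR, ERBB2 and ERBB4 and blocks their signalling. In cells that depend on these receptors, the block lowers MAP kinase activity, and within hours the transcripts of MAP kinase phosphatases, Sprouty and SPRED inhibitors and AP-1 factors decline. Hs746T cells carry an amplified MET gene, which encodes the receptor of hepatocyte growth factor, and MET can feed the same pathway without ERBB kinases.

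Levels are given in CPM, the count of a gene relative to the TMM-scaled total of its library. The total counts of the 6 libraries ranged from 42397631 to 60661089, and 3 counts, taken as the smallest level that can be shown, corresponded to between 0.0495 and 0.0708 CPM (counting error only). For this value and for the marker genes that follow, the CPM were taken without TMM scaling. Of the epithelial markers, KRT8 lay between 329 and 414 CPM and CLDN4 between 268 and 344 CPM, while CDH1 was at most 1.00 CPM and KRT20 at most 0.228 CPM. The mesenchymal markers VIM and FN1 lay between 1404 and 1962 CPM and between 1876 and 3263 CPM. KRT18 lay between 126 and 179 CPM, KRT19 between 20.7 and 46.8 CPM and EPCAM between 18.1 and 37.0 CPM. The epithelial markers thus ranged from E-cadherin and keratin 20 at the low end to keratin 8. The mesenchymal markers ranged from TWIST1 to fibronectin, and of these only vimentin and fibronectin lay above all epithelial markers. The summed level of 8 epithelial markers ranged from 816 to 949 CPM in untreated and from 832 to 946 CPM in afatinib-treated libraries, and that of 8 mesenchymal markers from 4167 to 5727 CPM and from 4136 to 5567 CPM. Of 8 immune and endothelial markers, 7 stayed below 1 CPM, and PECAM1 made up the rest with 78.9 to 180.3 CPM.

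A pair of the 6 libraries stood apart from all other Hs746T libraries in the slope on transcript length. For each library, the deviation of each gene was taken from its mean over the Hs746T libraries of the same time point and replicate number. It was fitted on the length and GC content of the longest annotated transcript, and the slope on length is given. A slope thus also depends on the other libraries of its set. Afatinib replicate 1 had a slope of -0.13 log2 units per doubling of the length, so that long transcripts were under-represented. Untreated replicate 2 had a slope of 0.16, in the opposite direction. The slopes of the other 40 libraries lay between -0.06 and 0.04. The log2FC of afatinib against untreated moved with transcript length, with a Pearson's r of -0.64 across 9450 genes, which are not independent replicates and share the libraries. The same r was -0.21 for trastuzumab + afatinib against trastuzumab and -0.24 for afatinib against untreated after 24 h. Length and GC together took up 49.8% of the variance of the deviations in trastuzumab replicate 1 at 4 h. These shares were 44.7% in afatinib replicate 1 and 42.4% in untreated replicate 2. The slope on GC was negative in trastuzumab replicate 1 and positive in trastuzumab + afatinib replicate 1, so this pair differed in its GC trend. Among the 3704 genes with the longest transcripts (5486 bases or more), 24.1% passed as lower and 2.48% as higher. Among the 3706 genes with the shortest (up to 1436 bases), 2.35% passed as lower and 15.5% as higher. The median log2 difference between same-numbered libraries was 0.10, 0.15 and 0.06 in replicates 1 to 3 for these shortest transcripts. For the longest it was -0.13, -0.18 and -0.03. The pair of replicate 3 holds neither library that stands apart. The part of this trend in the results below was not tested, and values with the length and GC trend of each library removed (chosen after seeing the data) are given for the genes described where the removal ended the call or moved the value by over 1.5 times, and for the key genes.

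**Figure D1:**
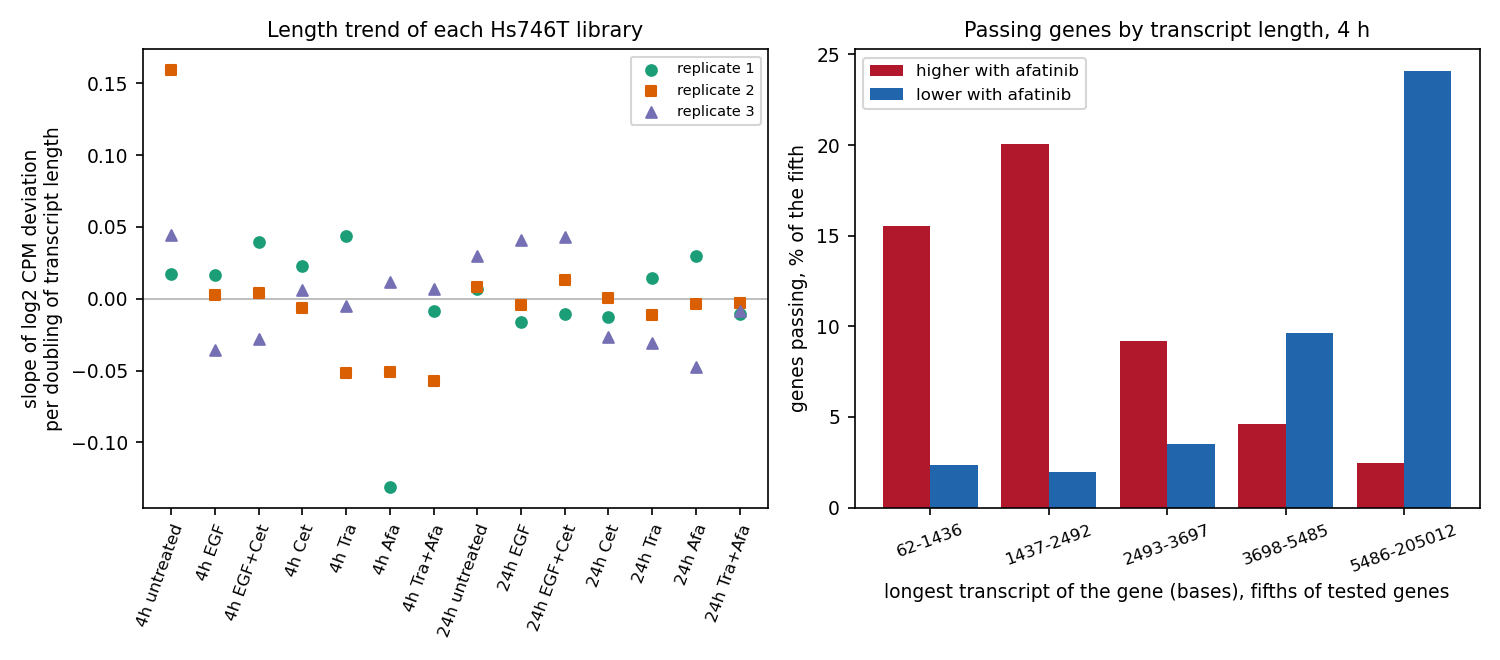
Left, slope of each of the 42 Hs746T libraries (log2 CPM deviation per doubling of transcript length) by treatment and time, with replicates as symbols. Untreated replicate 2 at 4 h (0.16) and afatinib replicate 1 at 4 h (-0.13) lie outside the range of the other 40 libraries. Right, percent of the genes in 5 bins of transcript length (bases), each of about the same number of genes, that passed as higher (red) or lower (blue) with afatinib at 4 h.

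Of 18667 genes tested, 3471 (18.6%) passed an adjusted p below 0.05 in edgeR's quasi-likelihood test with the replicate number as a block and Benjamini-Hochberg adjustment. Of these, 1924 were higher and 1547 lower after afatinib treatment, and scaling by library size alone gave 1588 higher and 2113 lower. The shifts were small, with a median absolute log2FC of 0.27 (1.20-fold) among the genes that passed, and 3259 of them (93.9%) changed less than 1.5-fold. In these bulk libraries, fewer cells that express a gene and less RNA per cell cannot be told apart. Among the 3471 genes that passed, 3283 (94.6%) had the same direction in all 3 same-numbered pairs. No overlap between the 3 untreated and the 3 afatinib libraries was found for 1711 of them (49.3%), beside 15.4% of all genes tested. The test selected these genes on the same libraries, so neither count is separate support. Without the block, 0 genes passed in edgeR's test (1371 at an unadjusted p below 0.05). The number depended on both libraries that stand apart. It fell to 5 genes without afatinib replicate 1, to 9 without untreated replicate 2 and to 0 without both (983 at an unadjusted p below 0.05), and it was 2077 without afatinib replicate 2. The 5 genes were INSIG1, HAS2, ARRDC3, GTF2A1 and LOXL1-AS1, so each other gene described below as past this test lost its call without afatinib replicate 1. The 9 genes were the same 5 with F3, PHLDB2, THEMIS2 and ADAMTS1. With the trend on length and GC removed, 2825 genes passed (15.1%), with 1431 higher (7.67%) and 1394 lower (7.47%), and 1953 of them were among the 3471, all in the same direction.

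INSIG1 (ENSG00000186480, chromosome 7 from 155297776 to 155310235, hg38) retains the precursors of the SREBP transcription factors in the endoplasmic reticulum and is itself an SREBP target. Its levels in untreated replicates 1 to 3 were 52.4, 64.8 and 63.6 CPM, and those in the afatinib replicates 63.2, 84.4 and 78.9 CPM. The value of replicate 1 was the lowest in both groups, so that the groups overlapped, but each afatinib library lay above the untreated library of the same number. The log2FC was 0.32 ± 0.05 (SE; adjusted p = 0.000555), and with the trend removed 0.27 (adjusted p = 0.000307). After trastuzumab the levels were 51.4, 59.3 and 61.9 CPM, and after trastuzumab + afatinib 57.9, 84.0 and 79.8 CPM. The addition of afatinib to trastuzumab thus gave a log2FC of 0.35 ± 0.05 (adjusted p = 0.000206). INSIG1 also passed without afatinib replicate 1 (0.34, adjusted p = 0.0022) and without untreated replicate 2 (0.32, adjusted p = 0.0256). With both left out the adjusted p was 0.0638 at a log2FC of 0.33, and with the trend removed as well it was 0.00685. After 24 h the log2FC was -0.03 (adjusted p = 0.924).

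F3 (ENSG00000117525, chromosome 1 from 94529225 to 94541800) encodes tissue factor, the cell surface receptor that starts the extrinsic coagulation pathway. The 3 untreated libraries had 111, 41.4 and 44.3 CPM and the afatinib libraries 79.4, 34.2 and 33.5 CPM. Replicate 1 lay well above the other replicates in both groups, and the fall was seen within each pair. F3 fell by 0.39 ± 0.07 on the log2 scale (adjusted p = 0.00186). The libraries with trastuzumab alone had 112, 46.5 and 38.2 CPM and those with trastuzumab + afatinib 77.4, 33.7 and 33.9 CPM, a log2FC of -0.40 (adjusted p = 0.0302). F3 was also lower after 24 h, with a log2FC of -0.38 (adjusted p = 0.00542). With the trend removed the log2FC at 4 h was -0.49 (adjusted p = 0.000341). F3 passed without untreated replicate 2 (-0.41, adjusted p = 0.0297), but not without afatinib replicate 1 (-0.33, adjusted p = 0.069) or without both (-0.36, adjusted p = 0.753). With trastuzumab, it passed in 1 of the 6 fits that leave out a single library, the one without trastuzumab replicate 3.

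BHLHE40 (ENSG00000134107, chromosome 3 from 4979116 to 4985323) encodes a basic helix-loop-helix repressor that also acts in the circadian clock. Its untreated levels were 79.7, 68.1 and 66.6 CPM and its levels after afatinib 98.2, 80.0 and 76.4 CPM. The afatinib library was the higher one in all 3 pairs, although the groups overlapped. The log2FC was 0.24 ± 0.05 (adjusted p = 0.0028) and 0.27 after addition of afatinib to trastuzumab (adjusted p = 0.0353). After 24 h it was 0.04 (adjusted p = 0.913). BHLHE40 did not pass without afatinib replicate 1 (0.21, adjusted p = 0.0929), without untreated replicate 2 (0.25, adjusted p = 0.0852) or without both (0.21, adjusted p = 0.899). With trastuzumab, it passed in 1 of the 6 fits that leave out a single library, the one without trastuzumab replicate 2.

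**Figure D2:**
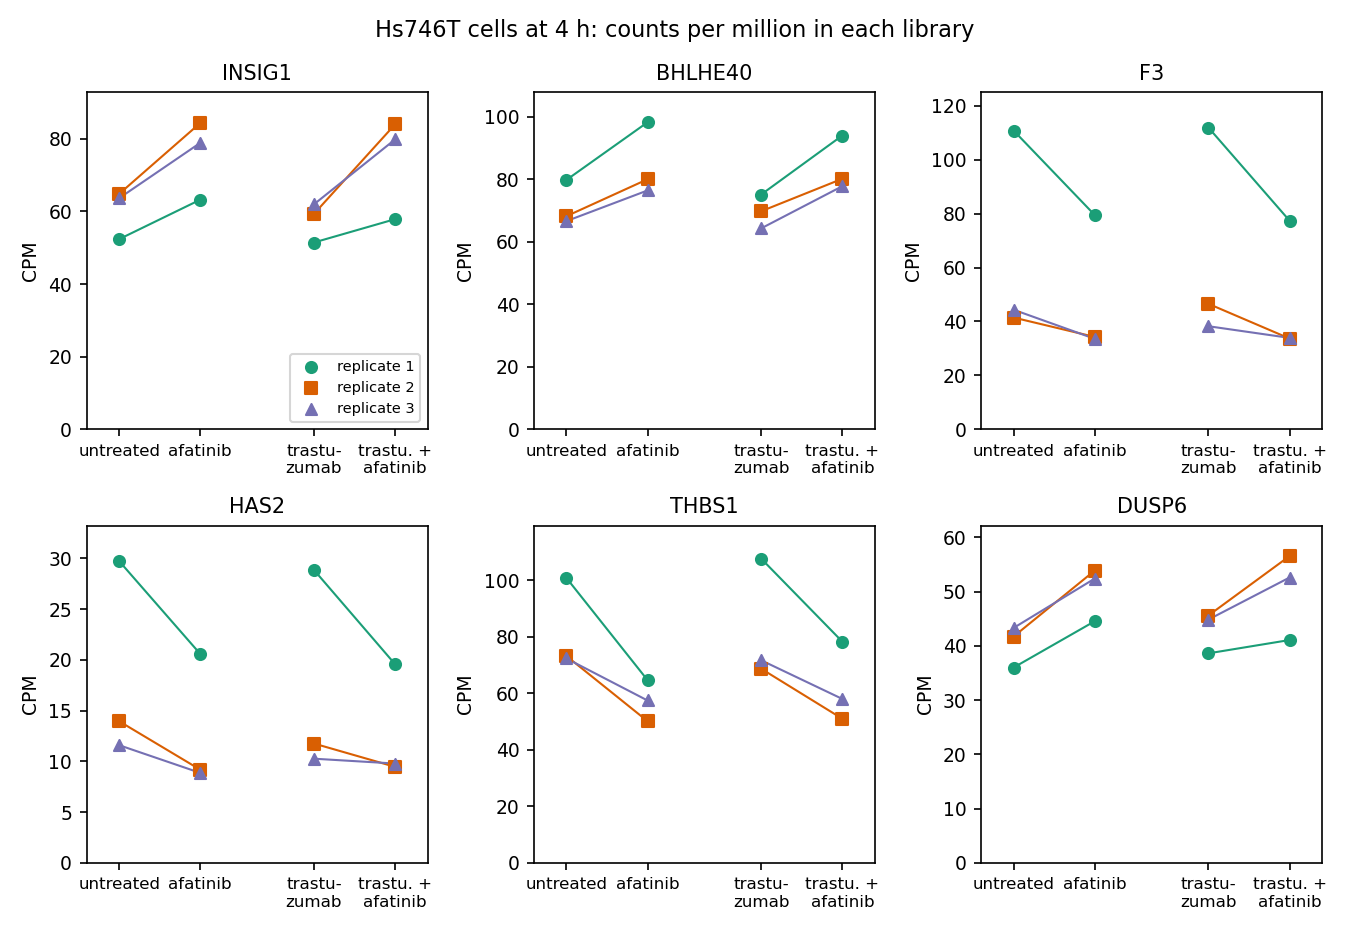
CPM (linear axis from 0) of INSIG1, BHLHE40, F3, HAS2, THBS1 and DUSP6 in each 4 h library of untreated, afatinib, trastuzumab and trastuzumab + afatinib cells. Lines join the same replicate number. For INSIG1, BHLHE40 and DUSP6 each line rises with afatinib and for F3, HAS2 and THBS1 each line falls, in both pairs of conditions.

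Sequences around the annotated start sites of these 3 genes, from 250 bases before to 50 bases after the start, are shown because these genes passed in both comparisons. They are RefSeq sequences of GRCh38.p14, written on the strand of the gene from 5′ to 3′, with the motif found in capitals. The windows are chr1:94541710-94542009 on the minus strand for F3, chr3:4979187-4979486 on the plus strand for BHLHE40 and chr7:155297628-155297927 on the plus strand for INSIG1.
F3: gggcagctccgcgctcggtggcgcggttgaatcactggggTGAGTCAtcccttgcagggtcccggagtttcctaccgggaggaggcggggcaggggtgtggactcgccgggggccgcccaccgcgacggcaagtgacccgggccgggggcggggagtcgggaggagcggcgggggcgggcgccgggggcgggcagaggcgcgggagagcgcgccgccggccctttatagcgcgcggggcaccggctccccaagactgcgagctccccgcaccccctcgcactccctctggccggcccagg
BHLHE40: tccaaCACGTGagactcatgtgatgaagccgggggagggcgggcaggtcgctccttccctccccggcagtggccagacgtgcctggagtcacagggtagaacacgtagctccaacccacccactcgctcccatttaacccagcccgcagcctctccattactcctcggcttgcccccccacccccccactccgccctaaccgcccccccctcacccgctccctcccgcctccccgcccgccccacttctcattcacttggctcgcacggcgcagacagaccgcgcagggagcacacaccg
INSIG1: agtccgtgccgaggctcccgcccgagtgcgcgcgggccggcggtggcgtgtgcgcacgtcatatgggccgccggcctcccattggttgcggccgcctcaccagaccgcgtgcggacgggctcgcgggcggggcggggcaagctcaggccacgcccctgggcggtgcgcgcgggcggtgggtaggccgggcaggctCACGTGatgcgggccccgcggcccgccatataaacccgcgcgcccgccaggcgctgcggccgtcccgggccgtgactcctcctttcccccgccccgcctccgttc
Both strands were searched for the AP-1 site TGACTCA, the CRE TGACGTCA, the E-box CACGTG, the ETS site CCGGAAGT, the forkhead site TGTTTAC and the SRF CArG box. F3 held an AP-1 site, read on the other strand, whose first base lay at position -210 from the start, and 4.95% of 35116 promoter windows held one. BHLHE40 held an E-box at -245 and INSIG1 an E-box at -55, a motif found in 7.26% of the windows. The other motifs searched were found in 1.85% (CRE), 4.14% (ETS), 3.42% (forkhead) and 1.29% (CArG box) of the windows and in none of these 3. A match is a description of the letters in the window and not evidence of binding.

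Addition of afatinib to trastuzumab gave few genes past the test, 4 of 18667 (0.0214%; 1245 at an unadjusted p below 0.05), and 3 of them also passed against untreated, all in the same direction. The 3 shared genes were 75% of the 4 and 0.0864% of the 3471. Of all genes tested, 18.6% passed against untreated and 61.5% had the same direction in both comparisons. The fourth was MAFA, a transcription factor of the insulin gene, with 1.48, 1.13 and 1.44 CPM under trastuzumab and 1.80, 2.64 and 2.72 CPM under trastuzumab + afatinib (log2FC 0.82, adjusted p = 0.0353). Against untreated its log2FC was 0.14 (adjusted p = 0.56). With the trend on length and GC removed, 47 genes (0.252%) passed in the trastuzumab + afatinib comparison, and 24 of these (51.1%) also passed among the 2825 of afatinib against untreated, 12 higher and 12 lower, with the same direction in all 24. With the trend removed, 15.1% of all genes passed against untreated, and 62.3% had the same direction in both comparisons. Without the block, addition of afatinib to trastuzumab gave 0 genes in edgeR's test (232 at an unadjusted p below 0.05). The number was 0 without the 4 h libraries of replicate 2, 2 without those of replicate 3, 10 without those of replicate 1, 1 without trastuzumab + afatinib replicate 2 or 3, and 2 without trastuzumab replicate 3. INSIG1 was past the test in all 6 fits without a single library and was not in the fit of the 4 h libraries alone, in which 0 genes passed.

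HAS2, the hyaluronan synthase that was chosen by the study as a motility gene in MKN1 cells, had 29.7, 14.0 and 11.6 CPM in untreated and 20.6, 9.17 and 8.86 CPM in afatinib libraries. It fell by 0.52 ± 0.08 on the log2 scale (adjusted p = 0.000581), with a log2FC of -0.34 on addition to trastuzumab (adjusted p = 0.123; 0.0335 with the trend removed) and of -0.33 after 24 h (adjusted p = 0.0324). THBS1, the matrix glycoprotein thrombospondin 1, had 101, 73.2 and 72.3 CPM in untreated and 64.6, 50.1 and 57.4 CPM in afatinib libraries, with no overlap. It fell by 0.50 ± 0.10 (adjusted p = 0.00205), and after 24 h its log2FC was -0.77 (adjusted p = 2.32e-05). Among the genes past the test in both 4 h comparisons after removal of the trend were also TGFB2, a TGF-beta ligand (-0.30 and against trastuzumab -0.39), and FST, the activin antagonist follistatin. CDKN1A, the cell cycle inhibitor p21, rose in the fit without that removal by 0.23 (adjusted p = 0.00748), from 117, 98.9 and 99.5 CPM to 136, 119 and 114 CPM. Its rise was 0.13 with the trend removed (adjusted p = 0.0265).

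**Figure D3:**
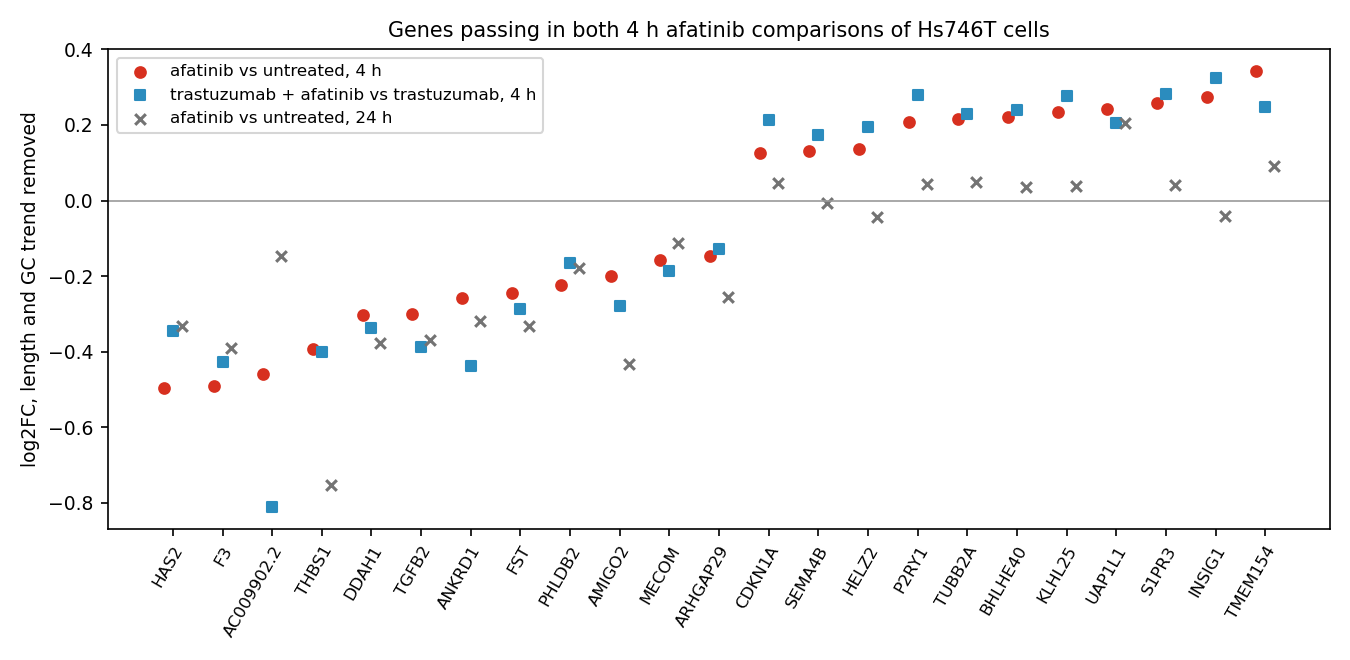
Log2FC with the length and GC trend removed of 23 of the 24 genes that passed in both 4 h comparisons, afatinib against untreated (circles) and trastuzumab + afatinib against trastuzumab (squares), with afatinib against untreated after 24 h (crosses). All 12 lower genes were also below 0 after 24 h, whereas the 11 plotted genes that were higher at 4 h lay between -0.04 (HELZ2) and 0.09 (TMEM154) after 24 h, apart from UAP1L1 (0.20).

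After 24 h, 133 genes (0.712%) passed, 32 higher and 101 lower. These came from other libraries, and 43 of them also passed at 4 h (32.3% of the 133 and 1.24% of the 3471), beside 18.6% of all genes tested. Of the 43, 40 had the same direction, beside 58.0% of all genes tested. HAS2, F3 and THBS1 were among those lower at both times, while INSIG1, BHLHE40 and DUSP6 had log2FC values of -0.03, 0.04 and -0.04 after 24 h. Without the block 0 genes passed after 24 h in edgeR's test (330 at an unadjusted p below 0.05). The number fell to 74 and 70 without afatinib replicates 2 and 3, and to 50, 46 and 40 without untreated replicates 1, 2 and 3.

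ARRDC3, LOXL1-AS1 and GTF2A1 were, with INSIG1 and HAS2, the genes that passed both without afatinib replicate 1 and without untreated replicate 2 (chosen after their values were seen). ARRDC3, an arrestin domain protein that takes part in receptor trafficking, had 26.3, 27.8 and 32.9 CPM in untreated and 22.5, 18.3 and 23.7 CPM in afatinib libraries. It fell by 0.44 ± 0.06 on the log2 scale (adjusted p = 0.000555). The long non-coding RNA LOXL1-AS1 fell from 23.1, 23.2 and 22.4 CPM to 18.9, 17.9 and 18.1 CPM, groups that did not overlap (log2FC -0.32, adjusted p = 0.000581). It lies antisense to LOXL1, and the sources used here do not say whether the reads were counted by strand. GTF2A1, a subunit of the general transcription factor TFIIA, fell from 114, 115 and 119 CPM to 84.3, 73.5 and 97.6 CPM (log2FC -0.45, adjusted p = 0.000581). On addition of afatinib to trastuzumab the log2FC was -0.11 for ARRDC3, -0.16 for LOXL1-AS1 and -0.08 for GTF2A1, and none of the 3 passed.

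Among the drug targets, EGFR had 268, 279 and 259 CPM in untreated and 217, 230.3 and 266 CPM in afatinib libraries. Replicate 3 went the other way from replicates 1 and 2. Its log2FC was -0.18 ± 0.06 (adjusted p = 0.0323), and -0.04 with the trend removed (adjusted p = 0.467). ERBB2 stayed between 76.9 and 86.3 CPM in the 6 libraries (log2FC 0.02 ± 0.13, adjusted p = 0.942). Both ERBB3 and ERBB4 were at the low end, at most 1.23 CPM in any of the 6 libraries, and neither passed. MET, amplified in this cell line, had 5154, 4004 and 3900.1 CPM in untreated and 4560.1, 3393 and 3719 CPM in afatinib libraries, which is far above EGFR. It was lower in all 3 pairs (log2FC -0.16 ± 0.05, adjusted p = 0.0141), but not past the test with the trend removed (-0.07, adjusted p = 0.067). Of 14 tested ERBB receptors and ligands, 0 passed as higher and 1, EGFR, as lower, beside 10.3% and 8.29% of all genes tested.

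Of 12 tested other receptor tyrosine kinases and HGF, 0 passed as higher and 3 as lower (median log2FC -0.20 against -0.01 over all genes). Of all genes tested, 10.3% passed as higher and 8.29% as lower. AXL, the receptor of the ligand GAS6, fell from 501, 491 and 489.8 CPM to 378, 325 and 398 CPM, with no overlap and a log2FC of -0.44 (adjusted p = 0.00139). ROR1, a receptor of Wnt ligands, fell from 69.9, 74.6 and 77.9 CPM to 59.9, 58.1 and 65.8 CPM. Both remained past the test with the trend removed. At the receptor level of EGFR feedback, the ubiquitin ligase gene CBL fell (-0.31, adjusted p = 0.0106, and -0.15 with the trend removed) and LRIG3, a relative of the EGFR inhibitor LRIG1, rose (0.18, adjusted p = 0.0254), and the other 4 tested members did not pass. CBL was at -0.20 without afatinib replicate 1 (adjusted p = 0.227), at -0.19 without untreated replicate 2 (adjusted p = 0.284) and at -0.05 without both.

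In the MAP kinase list of 19 feedback and target genes, 3 passed as higher, 1 as lower and 15 not at all, with log2FC values between -0.15 and 0.32. That is 21.1% of the list, beside 18.6% of all genes. DUSP6, the ERK phosphatase, had 36.0, 41.7 and 43.3 CPM in untreated and 44.5, 53.9 and 52.4 CPM in afatinib libraries. The groups did not overlap and the log2FC was 0.32 ± 0.05 (adjusted p = 0.00141), or 0.34 with the trend removed. FOSL1, the AP-1 subunit FRA1, had 869, 1463 and 1478 CPM and 949, 1905 and 1590.1 CPM, a log2FC of 0.20 (adjusted p = 0.0155) that was 0.04 with the trend removed (adjusted p = 0.459). IER3, an immediate early gene, was higher by 0.19 (adjusted p = 0.045) but at -0.01 with the trend removed. The SPRED1 gene, which encodes a Ras pathway inhibitor, fell by 0.15 (adjusted p = 0.025), and with the trend removed it was at -0.04 (adjusted p = 0.586). SPRY4, another feedback inhibitor, had 56.0, 46.7 and 48.0 CPM in untreated and 49.3, 41.5 and 49.3 CPM in afatinib libraries and did not pass (adjusted p = 0.157).

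The same genes were compared across the 4 cell lines in a joint fit of the 66 libraries of 4 h, in which 21565 genes were tested. No member was lower after afatinib in Hs746T cells in this fit (7.98% of all genes were). In each other line 17 of the 19 were lower, against 17.1% of all genes for NCI-N87, 15% for MKN7 and 7.43% for MKN1. The median log2FC was -0.02 for Hs746T, -1.40 for NCI-N87, -1.95 for MKN7 and -1.27 for MKN1. The difference of the afatinib effects itself passed the test for 16 members between Hs746T and MKN1 (17% of all genes), for 18 between Hs746T and MKN7 (24.3%) and for 15 between Hs746T and NCI-N87 (28.4%). For 15 of the 19 it passed against all 3 lines, and in each of these the effect was higher in Hs746T cells. In the order NCI-N87, MKN7, MKN1, the log2FC of DUSP6 was -4.73, -3.97 and -3.33, and it was 0.30 for Hs746T in this joint fit (adjusted p = 0.11). In the same order SPRY4 changed by -3.94, -5.16 and -3.74 and was at -0.12 in Hs746T cells. FOSL1, in that order, changed by -2.98, -2.43 and -2.26. Without both libraries that stand apart, 15 members differed from NCI-N87, 18 from MKN7 and 17 from MKN1. Without the block the numbers were 15, 15 and 12.

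**Figure D4:**
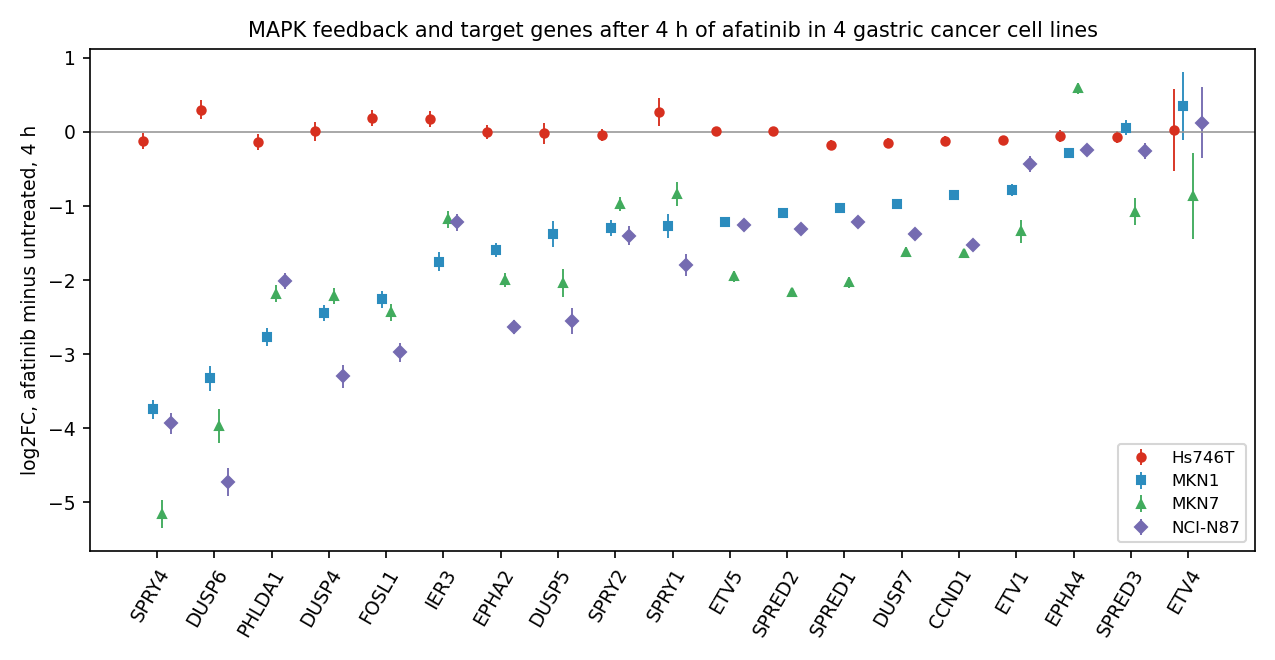
Log2FC of afatinib against untreated at 4 h (points) with its SE (bars) for the 19 MAP kinase feedback and target genes in Hs746T, MKN1, MKN7 and NCI-N87 cells, from the joint fit of 66 libraries. Hs746T values lie between -0.17 (SPRED1) and 0.30 (DUSP6), while DUSP6 reaches -4.73 in NCI-N87 and SPRY4 -5.16 in MKN7 cells.

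The genes that passed in both 4 h comparisons of Hs746T cells were also set beside the other lines. BHLHE40 had a log2FC of 0.23 for Hs746T against -1.25 for NCI-N87, -0.72 for MKN7 and -0.96 for MKN1, and the difference passed the test against each line (adjusted p at most 1.2e-08). INSIG1 rose in all 4 lines, by 0.30 for Hs746T, 0.15 for NCI-N87, 0.50 for MKN7 and 0.23 for MKN1, and its differences from Hs746T cells did not pass (adjusted p at least 0.0605). F3 fell in all 4 lines, by 0.41 for Hs746T, 2.58 for NCI-N87, 0.48 for MKN7 and 1.71 for MKN1. Its effect in Hs746T cells differed from those in MKN1 and NCI-N87 cells, and the difference from MKN7 cells was 0.08 (adjusted p = 0.72).

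The FOXO and insulin receptor list holds genes of the insulin pathway and genes that FOXO factors induce when PI3 kinase signalling is low. Of its 16 tested members, 0 passed as higher and 4 as lower in Hs746T cells (median log2FC -0.12), beside 18.6% of all genes in either direction. In the joint fit 0 were higher for Hs746T (6.59% of all genes were), against 13 for NCI-N87 (15.5%), 12 for MKN7 (16.6%) and 7 for MKN1 (6.77%). The effect differed from that in NCI-N87 cells for 12 members (28.4% of all genes differed), in MKN7 for 12 (24.3%) and in MKN1 for 9 (17%). For 8 members it differed from all 3 other lines, and for 0 of these was it higher in Hs746T cells than in all 3. INSR, the insulin receptor, had 42.5, 31.3 and 31.1 CPM in untreated and 31.3, 22.3 and 25.02 CPM in afatinib libraries, and it fell by 0.42 ± 0.07 (adjusted p = 0.00139). INSR was at -0.28 with the trend removed (adjusted p = 0.000969). In the joint fit it rose by 1.01 for NCI-N87 and 0.40 for MKN7, and it was at 0.20 for MKN1 (adjusted p = 0.107). IRS1, the insulin receptor substrate, and the transcription factor FOXO3 were lower by 0.20 and 0.18, and neither passed with the trend removed, when 1 member of the list was lower.

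Of 22 tested genes of cholesterol synthesis and uptake, 8 passed as higher and 0 as lower (10.3% of all genes passed as higher and 8.29% as lower). The median log2FC was 0.12, and 8 members were also higher with the trend removed (7.67% of all genes were). SC5D, the sterol-C5-desaturase, had 55.5, 54.8 and 53.9 CPM in untreated and 67.4, 70.5 and 64.3 CPM in afatinib libraries, with no overlap (log2FC 0.30, adjusted p = 0.0026). FDFT1, the squalene synthase, rose by 0.24 and EBP, a sterol isomerase, by 0.28 (0.12 with the trend removed). None of 7 tested genes of fatty acid synthesis passed. In YAP target genes the direction was opposite, with 9 of 21 lower and 1 higher (median -0.15). With the trend removed 7 were lower, beside 7.47% of all genes. Among the 9 were AXL, F3, CRIM1 (-0.32) and DOCK5, an activator of Rac (-0.39, and -0.24 with the trend removed). CYR61 and CTGF, the best known YAP targets, did not pass, with log2FC values of -0.05 and 0.13.

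Of 14 tested ATF4 target genes, 6 passed as higher and 0 as lower (median 0.19), and 7 were higher with the trend removed. Of all genes tested, 10.3% passed as higher and 8.29% as lower, and 7.67% were higher with the trend removed. These shares also stand beside the NRF2 and heat shock lists below. ATF4 itself, the transcription factor of the amino acid response, had 273, 324 and 374 CPM in untreated and 355, 472 and 413 CPM in afatinib libraries, a rise of 0.35 (adjusted p = 0.00282) that was 0.22 with the trend removed. TRIB3, a pseudokinase, rose by 0.44, ASNS, the asparagine synthetase, by 0.23 and SLC3A2, the heavy chain of amino acid transporters, by 0.21. SLC3A2 was at 0.10 with the trend removed, and ASNS did not pass (0.14, adjusted p = 0.0613). Of 13 NRF2 target genes, 5 passed as higher and 2 as lower. The ferritin light chain FTL rose from 877, 1031 and 1152 CPM to 1183, 1630.1 and 1350.3 CPM, and FTH1, the heavy chain, rose by 0.24. The log2FC of FTL was 0.44, or 0.18 with the trend removed, and that of FTH1 was then 0.03, which did not pass (adjusted p = 0.785). OSGIN1 rose by 0.29, and SLC7A11, the cystine transporter, fell by 0.23, a change that did not pass with the trend removed (-0.08, adjusted p = 0.237). Of 12 heat shock genes, 4 passed as higher, HSPB1 (0.41), DNAJB1 (0.25), BAG3 (0.20) and HSPA8 (0.17), and 0 as lower. After removal of the trend they were at 0.24, 0.15, 0.13 and 0.09, and HSPA8 did not pass (adjusted p = 0.0913).

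**Figure D5:**
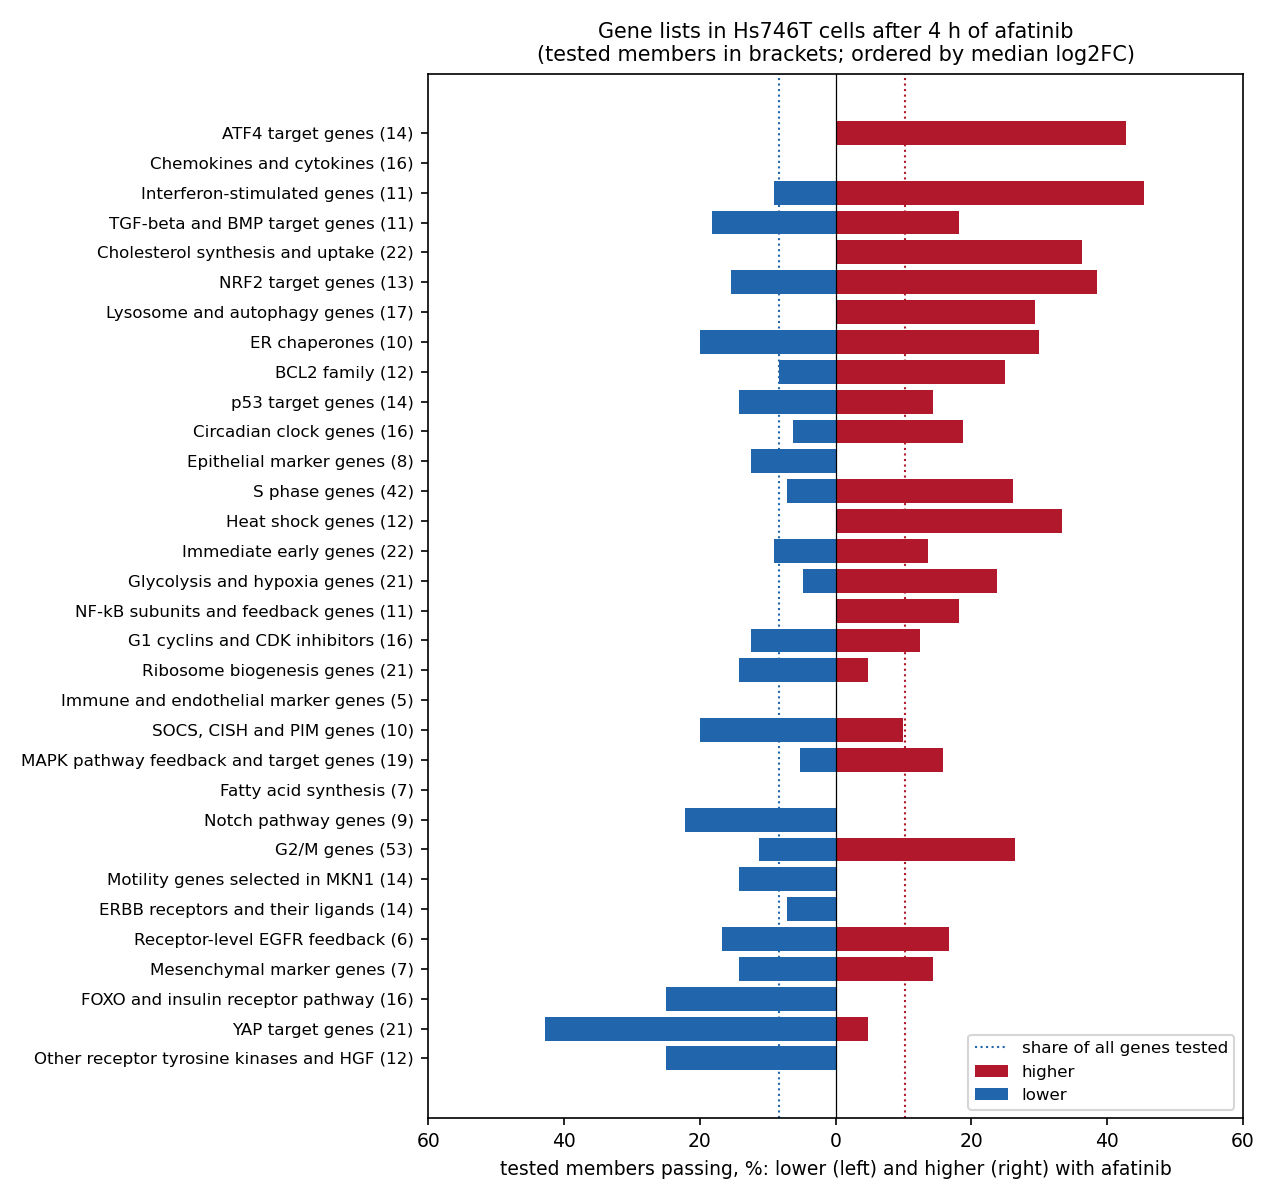
Percent of the tested members of each of 32 gene lists (number in brackets) that passed as lower (left, blue) or higher (right, red) after 4 h of afatinib in Hs746T cells, ordered by the median log2FC. Dotted lines mark the shares over all genes tested, 8.29% lower and 10.3% higher.

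Cell cycle lists held members in both directions. Of 42 S phase genes, 11 passed as higher and 3 as lower, and of 53 G2/M genes 14 and 6, beside 10.3% and 8.29% of all genes tested. With the trend removed the numbers were 6 and 2 for S phase and 6 and 6 for G2/M, beside 7.67% and 7.47% of all genes. The sliding clamp PCNA rose from 201, 199 and 209 CPM to 251, 277 and 229.6 CPM, and GMNN, the geminin gene, rose by 0.31, while UHRF1, which maintains DNA methylation, fell by 0.31. CKS2, a CDK subunit, rose by 0.48. CDK6 fell from 159, 148 and 139 CPM to 101, 85.3 and 118 CPM (log2FC -0.56, adjusted p = 0.00177), and CDK4 rose by 0.31. With the trend removed the log2FC values were 0.12 for PCNA, 0.11 for GMNN, 0.23 for CKS2 and 0.19 for CDK4. Of these, CDK6 has a longest transcript of 11612 bases. Among 11 interferon-stimulated genes 5 passed as higher and 1 as lower, with ISG15 at 29.7, 24.2 and 24.3 CPM in untreated and 40.9, 42.8 and 29.9 CPM in afatinib libraries, and OASL at a log2FC of 0.38. The log2FC of ISG15 was 0.52, or 0.26 with the trend removed. Of 17 lysosome and autophagy genes 5 passed as higher and 0 as lower, among them MAP1LC3B (0.28), which marks autophagosomes, and the lysosomal sialidase NEU1 (0.25). NFKBIA, the NF-kB inhibitor, rose by 0.36 (0.17 with the trend removed). Of 22 immediate early genes 3 passed as higher and 2 as lower, and the former included ATF3 (0.27) and KLF2 (0.20). Neither passed with the trend removed (0.15, adjusted p = 0.119, and 0.09, adjusted p = 0.199), and 0 members of that list were higher and 1 lower. None of the 16 tested chemokines and cytokines passed, and the 14 motility genes that the study selected in MKN1 cells held F3 and HAS2 as the only members past the test. Without the pair of libraries that stand apart, 0 of 19068 genes passed, so no member of the 32 lists could pass. Of the 3 same-numbered pairs, that fit kept only the one of replicate 3 whole.

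The largest rises among protein-coding genes with a mean log2 CPM above 1 were those of ALDH1A1, a retinaldehyde dehydrogenase (0.86), C19orf33 (0.79), DDT, D-dopachrome tautomerase (0.76), and RPS27, a ribosomal protein (0.74). After removal of the trend C19orf33 was at 0.49 and DDT at 0.50. ALDH1A1 had 1.97, 0.926 and 1.75 CPM in untreated and 3.73, 2.06 and 2.50 CPM in afatinib libraries, and on addition of afatinib to trastuzumab its log2FC was -0.80 (adjusted p = 0.31). RPS27 had 228, 269.8 and 277 CPM in untreated and 369, 615 and 360.4 CPM in afatinib libraries. Its pair of replicate 2 differed most, its longest transcript has 625 bases, its log2FC with the trend removed was 0.49, and that on addition to trastuzumab was 0.02. RPS29 and RPS21 rose by 0.65 and 0.61, and ATP5F1E and UQCR10, subunits of the ATP synthase and of respiratory complex III, by 0.64 and 0.61. RPS21 was at 0.36 and UQCR10 at 0.37 with the trend removed. Without both libraries that stand apart, these 8 genes lay between 0.17 (ATP5F1E) and 0.33 (ALDH1A1), in a fit in which no gene passed. Ribosomal protein genes have near-identical processed copies, so their counts are uncertain.

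The largest falls included MDM2, the ubiquitin ligase of p53 (-0.77), and its relative MDM4 (-0.65). MDM2 had 14.7, 11.1 and 11.8 CPM in untreated and 7.63, 5.54 and 9.23 CPM in afatinib libraries, with no overlap (adjusted p = 0.00139). On addition of afatinib to trastuzumab the log2FC was -0.25 for MDM2 and -0.13 for MDM4, and neither passed. Their longest transcripts have 12633 and 10073 bases. SNX27, a sorting nexin of endosomes, and SRGAP1, a GTPase-activating protein, fell by 0.65 each, TOP3B, a topoisomerase, by 0.76 and KLHL11 by 0.78. Without both libraries that stand apart, these genes lay between -0.48 (TOP3B) and -0.17 (KLHL11), in a fit in which no gene passed. The fall of RBM14-RBM4 (-0.65) concerns a read-through gene that overlaps its 2 parent genes. All 12 largest rises and all 12 largest falls still passed with the trend removed, and none of them passed on addition of afatinib to trastuzumab or after 24 h.

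The study calls a gene regulated if, beyond the adjusted p, its log2FC exceeds 1 in size. By that rule 66 genes (0.354%) were regulated, 31 higher and 35 lower. Scaling by library size alone gave 19 higher and 48 lower. Of the 66, 27 were protein-coding, and 1 had a mean log2 CPM above 1. Regulated genes were thus mostly of very low level. DESeq2 called 2 regulated genes, and none was regulated without afatinib replicate 1 or without untreated replicate 2, 36 without afatinib replicate 2, 104 without afatinib replicate 3 and 153 without untreated replicate 1.

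Other treatments of Hs746T cells at 4 h were compared with the same untreated libraries, which these comparisons share. The log2FC of INSIG1 was -0.01 after EGF, -0.02 after cetuximab, -0.06 after trastuzumab and 0.28 after trastuzumab + afatinib. For F3 the values were 0.01, 0.04, -0.00 and -0.41, and for HAS2 0.18, -0.09, -0.15 and -0.48. DUSP6 was at 0.33 after EGF and 0.31 after trastuzumab + afatinib. In total, 3 genes (0.0161%) passed after EGF, as many after EGF + cetuximab, 311 (1.67%) after trastuzumab + afatinib, and 0 after cetuximab and trastuzumab in edgeR's test (2038 and 2759 at an unadjusted p below 0.05).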

How the data were processed

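The authors isolated RNA, purified mRNA, prepared directional libraries and sequenced them paired end. The files that the authors deposited hold raw counts by Ensembl gene identifier, 1 file per library, without normalization. The submitters' processing notes name Trim Galore, STAR and hg38. The counter, its strand setting and the annotation are not given in the sources used here. Identifiers were matched to GENCODE 29, which lacks 8404 of 65217 (0.0422% of the counts). Counts on 37 mitochondrial identifiers were 0. Among 42 pairs of Hs746T replicates, 0 were identical.

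The 42 Hs746T libraries (25832557 to 68782497 counts) were fitted together in R 4.3.3 with edgeR 4.0.16 (TMM, filterByExpr at count 10 and total 15, glmQLFit and two-sided glmQLFTest, Benjamini-Hochberg adjustment over all genes tested, 24 residual degrees of freedom), with a mean for each treatment at each time point and the replicate number within a time point as block. Genes passed at an adjusted p below 0.05 and were regulated if the absolute log2FC was also above 1. Differences between cell lines were interaction contrasts in a fit of the 66 libraries of 4 h (36 residual degrees of freedom). The numbers in the labels were taken as pairs, which the labels do not state. Deviations of same-numbered afatinib and untreated libraries at 4 h correlated with r = 0.957, 0.643 and 0.557. Differently numbered libraries reached at most 0.639, which is above the value of replicate 3. The block was set with it known that the fit without it calls no gene. Members and gene lists were chosen with earlier results of these data known.

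Named genes were the ERBB receptors and MET, the 12 largest rises and 12 largest falls among protein-coding genes that passed with a mean log2 CPM above 1 and 1 direction in all 3 pairs, and up to 4 passing members per list with the smallest p. The remaining named genes (MAFA, ARRDC3, LOXL1-AS1, GTF2A1, CYR61, CTGF, SPRY4 and those shared between comparisons) were chosen after their values were seen. Some genes that fall under these rules are not reported here. Alternatives were DESeq2 1.42.0, no block, library size alone, other filters, fewer libraries in the fit and leaving out replicates. Removing a loess trend on transcript length and GC in each library, and leaving out both libraries that stand apart, were chosen after seeing the data. On simulated counts with 200 changed genes for afatinib against untreated at 4 h (18569 genes), the paired test recovered 76% of the genes changed 1.25-fold, 96% of those changed 1.5-fold and 100% of those changed 2-fold, and called 6 of 18369 unchanged genes. The simulated counts held no length trend of single libraries. These rates thus do not describe the calls that depended on both libraries that stand apart. Python 3.11.15 with matplotlib 3.10.9 drew the figures.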

Additional observations from a re-analysis of the deposited data

Results flagged for a closer look

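The effect of afatinib at 4 h in Hs746T cells differed from that in another cell line, by the interaction test in edgeR, for 3665 genes against MKN1, 5232 against MKN7 and 6130 against NCI-N87 cells. Scaling by library size alone moved the split of these genes, to 1095 higher and 3341 lower in Hs746T than in MKN1 cells, in place of 1813 and 1852, to 1908 and 3625 against MKN7, in place of 2395 and 2837, and to 2332 and 4006 against NCI-N87, in place of 3198 and 2932. DUSP6, the ERK phosphatase, had a log2FC that was higher in Hs746T cells by 3.63 than in MKN1, by 4.27 than in MKN7 and by 5.03 than in NCI-N87 cells. For FOSL1, an AP-1 subunit, these differences were 2.44, 2.62 and 3.16. Of the 19 MAP kinase feedback and target genes, 16 differed from MKN1, 18 from MKN7 and 15 from NCI-N87 cells, and all but 1 of those that differed from MKN7 cells were higher in Hs746T cells. The exception was EPHA4, which rose in MKN7 cells. Between 12 and 17 members differed from MKN1, between 15 and 18 from MKN7 and between 15 and 16 from NCI-N87 cells over the alternatives run.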

How the results depend on the processing

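Afatinib against untreated at 4 h gave 3471 genes. The fit with no replicate block gave 0, only the 6 compared libraries 0 (4668 at an unadjusted p below 0.05), only libraries of 4 h 1727, leaving out replicates between 0 and 4596, leaving out both libraries that stand apart 0, the same with the length and GC trend removed 4 (TMEM154, ARRDC3, INSIG1 and LOXL1-AS1), and that trend removed with no replicate block 1 (LOXL1-AS1). Regulated genes numbered 66, with DESeq2 2, with at least 10 counts in each library 11, with only libraries of 4 h 32, with replicates left out between 0 and 153, and 0 without the replicate block, without the block and the trend, in the 6 compared libraries and without both libraries that stand apart (with and without the trend). With the trend removed and the block kept, 4 were higher and 85 lower. Trastuzumab + afatinib against trastuzumab gave 4 genes, with DESeq2 32, with library size alone 9, with no filter 46, in its 6 libraries 13, in those of 4 h 0, with the trend removed 47, with no replicate block 0 (also with the trend removed), and between 0 and 10 with replicates left out. After 24 h 133 genes passed, with DESeq2 241, with the trend removed 341, in the 6 libraries 8, with no replicate block 0 (also with the trend removed), and between 25 and 90 with replicates left out. Without the replicate block the effects differed for 110 genes from MKN1, 1256 from MKN7 and 1579 from NCI-N87 cells. Without both libraries that stand apart they differed for 914 genes from MKN1 and 3742 from NCI-N87 cells, and with replicates left out for 1436 to 4169 from MKN1, 3826 to 5310 from MKN7 and 4490 to 6135 from NCI-N87 cells. Of 101 genes followed over 20 alternatives, 97 kept their direction. The others were IER3, EGFR, ERBB2 and ERBB4. IER3 was at -0.0142 with the trend removed and at -0.00982 also without the block. With the block kept, IER3 was at 0.0221 without both libraries that stand apart and at -0.0403 with the trend removed as well. EGFR was at 0.0234 without both libraries and the trend. ERBB2 was at -0.0253 with library size alone and between -0.0671 and 0.0975 with replicates left out. ERBB4 was at 0.0465 with the trend removed, at 0.0493 also without the block, and between -0.322 and 0.0362 with replicates left out. The cause of these shifts was not tested. Most regulated genes had low counts, and at the low level of ERBB3 a log2FC of 0.36 did not pass.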
